A study of Mus musculus with 36 samples.

Results

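Tumors grown from 4T1 cells were compared with tumors grown from Py230 cells at 6 weeks after injection (6 w p.i.) into the milk ducts of mice, with 3 libraries per model. These 6 libraries were taken by the cell line and the time in their labels, out of 36 libraries in the series. The study set an early metastatic model beside a locally invasive one and asked how their tumors and immune cells differ. 4T1 tumors grew in BALB/c mice from 50000 injected cells of a line that expresses firefly luciferase. Py230 tumors grew in C57BL/6 mice from 100000 injected cells of a line made from a mammary tumor of an MMTV-PyMT transgenic mouse, in which a mouse mammary tumor virus promoter drives the polyoma middle T oncogene in mammary epithelium. All hosts were lactating females of a normal immune background, mated at 8 weeks of age and weaned of their pups 10 days after delivery, and cells were given in PBS and Matrigel, a basement membrane extract, through the teat of the third mammary gland. The Matrigel glands of both strains at 6 w p.i., 3 libraries per strain, served as a check for strain effects. Each model is 1 cell line in 1 mouse strain, so line and strain cannot be told apart in the tumors. The study describes the 3 tumor samples of each model and time as independent, without saying whether each came from its own mouse, and for the glands the sources used here do not say, so gland p-values measure a spread between samples that may be technical.

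The mammary epithelium has luminal cells, which line the ducts and make milk, and contractile basal cells around them. In lactation, prolactin acts through its receptor and STAT5, together with transcription factors such as ELF5, on the genes of the milk proteins, and these genes are turned down after weaning. Mammary tumors can keep or lose luminal and basal identity, and they recruit myeloid cells through chemokines and colony-stimulating factors. In bulk tumor RNA, fewer cells of a type and less RNA per cell of that type cannot be told apart.

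The deposited value of a gene in a library is a score, scaled so that all genes listed average 0 within the library with an SD of 1. Differences are 4T1 minus Py230 group means in score units (n = 3 and 3), and they are not fold changes. Each SE is from limma and rests on a spread per gene shared by the 12 groups of all 36 libraries. It can be smaller than the scatter of the 3 tumors of a model would give. A gene was called when its Benjamini-Hochberg adjusted p was under 0.05. The read depth of each library is unknown from the scores. Correlations across genes were at least 0.9817 between tumors of the same model and at most 0.9232 between tumors of different models. Fat and muscle of the gland were unevenly represented: the mean score of 20 adipocyte markers ranged from -0.30 to -0.063 in 4T1 tumors, from -0.0038 to 0.79 in Py230 tumors and from 1.44 to 1.91 in the Matrigel glands. For 19 skeletal muscle markers the ranges were -0.62 to 0.085, -0.70 to 0.90 and 1.32 to 2.27. Of these, 4 adipocyte markers were called lower in 4T1 tumors (2 without 4T1 replicate 1 or without Py230 replicate 3) and 0 muscle markers were called by limma in either direction, with 0 at an unadjusted p under 0.05. 

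Of 19073 genes tested, 8111 (42.5%) were called, 4658 (24.4%) higher and 3453 (18.1%) lower in 4T1 tumors. The direction of this split depended on how libraries were scaled, since 57.4% of called genes were higher with the deposited scores and 49.7% after cyclic loess normalization. Most differences were small: the median absolute difference of called genes was 0.252, beside a median SD of 0.0521 over the 4T1 and 0.0473 over the Py230 libraries. Large differences ran mainly the other way, with 119 genes called higher and 341 called lower by at least 1 unit. The values of one model lay apart from those of the other for 58.7% of genes tested. Genes named for the largest differences were required to lie apart in this way, so non-overlap is no further result for them. Counts called within a gene list are to be read beside the 24.4% higher and 18.1% lower of all genes tested. Just inside the threshold lay Gm49787 (difference 0.16, adjusted p = 0.0499) and just outside it Gm6517 (difference 0.074, adjusted p = 0.05002). In the glands, 680 genes (3.57%) were called between BALB/c and C57BL/6, of which 356 were called in the same direction in the tumors, that is 52.4% of gland calls and 4.39% of tumor calls. With the gland difference subtracted, 5105 genes (26.8%) were called, 14.6% higher and 12.2% lower, and 4663 of the tumor calls were kept in their direction.

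**Figure D1:**
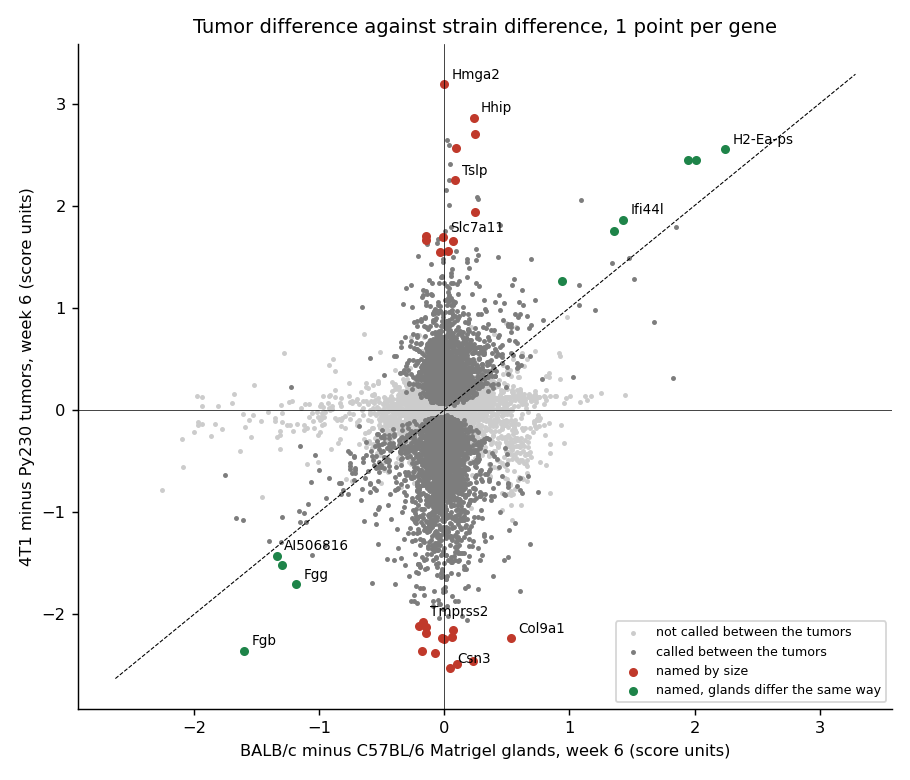
Each point is a gene tested at 6 w p.i., with the BALB/c minus C57BL/6 difference of the Matrigel glands on the x axis and the 4T1 minus Py230 difference of the tumors on the y axis, both in score units. Some named genes of largest difference, such as Hmga2, Hhip and Csn3, lie near 0 on the gland axis. Others of them, Gm10499, Ifi202b, Gm11127 and Fgb, lie away from 0 on both axes, as do H2-Ea-ps, Ifi44l, Fgg and AI506816. The rule for largest difference also required a call after the gland difference was subtracted, which limits the gland differences that such genes can show. Hmga2 scored low in the glands of both strains, which leaves little room for a gland difference. The dashed line marks equal differences in tumors and glands.

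Most, though not all, of the luminal genes listed were lower in 4T1 than in Py230 tumors. Of 22 luminal regulators and receptors, 16 were called lower and 0 higher in 4T1 tumors, with a median difference of -1.09 beside 0.0264 over all genes tested, and the same 16 to 0 split held with the gland difference subtracted. Prlr, the prolactin receptor (chr15:10177238-10349180, + strand, mm10), had scores of -0.47, -0.57 and -0.27 in the 4T1 tumors and 1.95, 1.86 and 2.04 in the Py230 tumors. The difference was -2.39 ± 0.15 (SE), adjusted p = 9.65e-13. Elf5, an ETS factor that drives the alveolar milk program (chr2:103411688-103450989, + strand, mm10), scored -0.80, -0.75 and -0.80 in the 4T1 tumors and 1.14, 1.05 and 1.30 in the Py230 tumors, a difference of -1.95 ± 0.080 (SE), adjusted p = 3.42e-16. Its neighbor on chromosome 2, the epithelial ETS factor Ehf (chr2:103263433-103303278, - strand, mm10), scored -0.66, -0.75 and -0.53 in the 4T1 tumors and 1.59, 1.40 and 1.78 in the Py230 tumors, a difference of -2.24 ± 0.11 (SE), adjusted p = 2.52e-14. For all 3 genes the 4T1 values were negative and the Py230 values positive, with no overlap.

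The same pattern held for the luminal factors Tfap2c (AP-2 gamma) and Foxa1, a pioneer factor that opens chromatin for the estrogen receptor. Tfap2c scored -0.61, -0.49 and -0.26 in the 4T1 tumors and 1.60, 1.64 and 1.55 in the Py230 tumors, a difference of -2.06 ± 0.11 (SE), adjusted p = 9.68e-14. Foxa1 scored -0.23, -0.38 and -0.44 in the 4T1 tumors and 1.39, 1.36 and 1.45 in the Py230 tumors, a difference of -1.75 ± 0.12 (SE), adjusted p = 8.04e-12. Further lower genes were Cited1 (-1.86) and Spdef (-1.41), both luminal transcription regulators, and the progesterone receptor Pgr (-1.05). Not every luminal gene was called: the estrogen receptor Esr1 (-0.098 ± 0.12 (SE), adjusted p = 0.571), the luminal master factor Gata3 (-0.12 ± 0.088 (SE), adjusted p = 0.302), the HER2 gene Erbb2 (-0.012) and the secretory factor Xbp1 (0.090) had small differences. Gata3 scored 1.34, 1.34 and 1.23 in the 4T1 tumors and 1.45, 1.31 and 1.51 in the Py230 tumors, so that the groups overlapped. The mean score of the list was -0.27 to -0.14 in 4T1 tumors, 0.79 to 0.90 in Py230 tumors and 0.67 to 0.92 in the glands, and so only the 4T1 tumors stood apart from the glands in these ranges.

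Genes of milk were lower in 4T1 tumors as well. Of 18 milk protein and secretion genes tested, 13 were called lower and 0 higher, with a median of -0.65. Csn3, kappa-casein, scored -0.25, -0.16 and -0.19 in the 4T1 tumors and 2.24, 2.18 and 2.58 in the Py230 tumors, a difference of -2.53 ± 0.13 (SE), adjusted p = 5.34e-14. Csn1s1, alpha-casein, scored -0.47, -0.497 and -0.42 in the 4T1 tumors and 0.88, 0.81 and 0.90 in the Py230 tumors, a difference of -1.32 ± 0.16 (SE), adjusted p = 1.43e-07. Lalba, the alpha-lactalbumin subunit of lactose synthase, scored -0.80, -0.71 and -0.71 in the 4T1 tumors and 0.48, 0.38 and 0.88 in the Py230 tumors, a difference of -1.31 ± 0.12 (SE), adjusted p = 2.00e-09, while its gland difference was 0.68. In each case the 3 4T1 tumors were below 0 and close together, and the 3 Py230 tumors were above 0. Wfdc18, a whey acidic protein family member expressed in involuting glands, was lower by a larger margin (-0.81, -0.67 and -0.79 in the 4T1 tumors and 1.66, 1.48 and 1.98 in the Py230 tumors, difference -2.46 ± 0.17 (SE), adjusted p = 5.88e-12). Csn2, beta-casein (-0.58 ± 0.19 (SE), adjusted p = 0.0134), and Wap, whey acidic protein (-0.48 ± 0.19 (SE), adjusted p = 0.0374), differed less. The Csn2 call was lost without Py230 replicate 1, and the Wap call without any 1 tumor library other than Py230 replicate 2. The other genes of the list, Csn1s2a, Csn1s2b, Plin2, Xdh and Fabp3 were not called. By the mean score of the list, Py230 tumors did not reach the glands. This mean was -0.41 to -0.38 in 4T1 tumors, 0.34 to 0.55 in Py230 tumors, 0.97 to 0.99 in BALB/c glands and 0.67 to 0.83 in C57BL/6 glands. Single genes departed from it. Csn3 scored 2.29, 2.30 and 2.56 in BALB/c glands and 2.52, 2.23 and 2.27 in C57BL/6 glands, overlapping the Py230 tumors. Wfdc18 scored 0.55 to 1.26 in the glands of both strains, below each Py230 tumor.

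STAT5 binds DNA at palindromes of the form TTCNNNGAA. To show where these letters lie in front of casein genes that were lower in 4T1 tumors, the 250 bases upstream of the RefSeq start (GRCm38.p6, the patched mm10) are given 5′ to 3′, with the match in capitals, for Csn1s1 (chr5:87665958-87666207, + strand) and Csn2 (chr5:87699426-87699675, - strand, a start 205 bases from that of the gene annotation used here):
Csn1s1: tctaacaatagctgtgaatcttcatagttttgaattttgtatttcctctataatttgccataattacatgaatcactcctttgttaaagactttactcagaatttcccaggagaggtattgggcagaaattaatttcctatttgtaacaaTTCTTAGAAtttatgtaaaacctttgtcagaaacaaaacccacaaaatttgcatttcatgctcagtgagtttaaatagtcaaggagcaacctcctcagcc
Csn2: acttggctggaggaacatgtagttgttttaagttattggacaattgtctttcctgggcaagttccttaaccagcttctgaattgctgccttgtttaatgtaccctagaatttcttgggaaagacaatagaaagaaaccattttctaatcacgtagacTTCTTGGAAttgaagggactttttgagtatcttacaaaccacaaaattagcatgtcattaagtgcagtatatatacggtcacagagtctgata
Each holds 1 match, starting at position -100 in Csn1s1 and -93 in Csn2. Of 13 genes of the milk list with a promoter in the table, 2 held a match on either strand, and the windows of Lalba and Wap held none. The letters occurred in 7.13% of 27025 promoters of the table, in 6.03% of those of genes tested, in 6.01% of those called higher and in 5.54% of those called lower in 4T1 tumors. A match describes letters only and does not show that a factor bound there.

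Basal genes were lower too, though less evenly. Of 15 basal and myoepithelial genes, 8 were called lower and 1 higher (Itgb4, an integrin of hemidesmosomes, 0.42), with a median of -0.47. Counts for this list were 5 lower and 1 higher with the gland difference subtracted. Trp63, the p63 factor that maintains basal cells, scored -0.13, -0.66 and 0.0037 in the 4T1 tumors and 1.08, 1.21 and 0.89 in the Py230 tumors, a difference of -1.32 ± 0.12 (SE), adjusted p = 1.32e-09. Krt5, a basal keratin, scored -0.21, -0.71 and 0.77 in the 4T1 tumors and 1.34, 1.51 and 1.08 in the Py230 tumors, a difference of -1.36 ± 0.24 (SE), adjusted p = 3.75e-05. In both genes the lowest Py230 value was above the highest 4T1 value, and 4T1 replicate 2 was the lowest library. Oxtr, the oxytocin receptor that mediates milk ejection (-1.57), and Krt17 (-1.19) were also lower, whereas Krt14 was not called (0.74, -0.40 and 0.91 in the 4T1 tumors and 0.93, 0.96 and 0.76 in the Py230 tumors, difference -0.47 ± 0.23 (SE), adjusted p = 0.1) and its groups overlapped. Among simple keratins, Krt8 (-0.068 ± 0.081 (SE), adjusted p = 0.549) and Krt18 (0.058 ± 0.085 (SE), adjusted p = 0.633) were not called, and Krt19 was lower (0.93, 0.66 and 1.02 in the 4T1 tumors and 2.09, 2.10 and 2.16 in the Py230 tumors, difference -1.25 ± 0.11 (SE), adjusted p = 3.59e-10).

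Sox10, a neural crest and mammary progenitor factor, was among the genes of largest difference (-0.72, -0.79 and -0.71 in the 4T1 tumors and 1.34, 1.43 and 1.49 in the Py230 tumors, difference -2.16 ± 0.090 (SE), adjusted p = 5.68e-16). All 4T1 values lay below all Py230 values, which the rule that named this gene required. Within the Sox family, 8 of 13 genes tested were called lower and 0 higher, including Sox8 (-1.66), Sox13 (-0.69) and Sox12 (-0.51). Schwann cells also express Sox10 and S100b: of 10 Schwann cell and nerve markers 2 were called lower, S100b by -0.52, and 1 higher, Ncmap by 0.46. The mean score of these markers was -0.17 to -0.050 in 4T1 and 0.14 to 0.21 in Py230 tumors, and their part in the Sox10 difference was not tested.

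Junction genes were lower in part and mesenchymal genes higher in part in 4T1 tumors. Of 29 epithelial junction and splicing genes 17 were called lower and 2 higher, with a median of -0.29, and the lower count was 11 without 4T1 replicate 2 and 11 without Py230 replicate 3. Junction counts were 12 lower and 2 higher with the gland difference subtracted. Claudins 8 and 1 (Cldn8 -1.29, Cldn1 -1.27), which seal tight junctions, and the epithelial factor Grhl1 (-1.25) were lower, while the scaffold Tjp1 (0.37) and Cldn4 (0.30) were higher, the Cldn4 call being lost under 10 of the settings tried. Cdh1, E-cadherin, scored 1.60, 1.01 and 1.63 in the 4T1 tumors and 1.72, 1.70 and 1.76 in the Py230 tumors, a difference of -0.32 ± 0.12 (SE), adjusted p = 0.0433, and this call was lost without 4T1 replicate 2, the lowest library, without any 1 of the Py230 libraries and with only the libraries of week 6 in the fit. Epcam scored 1.90, 1.11 and 1.85 in the 4T1 tumors and 1.61, 1.57 and 1.76 in the Py230 tumors, and it was not called (-0.027 ± 0.13 (SE), adjusted p = 0.893). Of 19 transcription factors and markers of epithelial-mesenchymal transition (EMT), 9 were called higher and 3 lower, with a median of 0.17. Fn1, the matrix protein fibronectin, scored 3.41, 3.21 and 3.36 in the 4T1 tumors and 1.83, 2.22 and 1.80 in the Py230 tumors, a difference of 1.38 ± 0.17 (SE), adjusted p = 2.90e-07. Vim, vimentin, scored 2.74, 2.89 and 2.66 in the 4T1 tumors and 2.14, 2.18 and 2.11 in the Py230 tumors, a difference of 0.62 ± 0.076 (SE), adjusted p = 1.94e-07. Both were higher in each 4T1 tumor than in any Py230 tumor, as were the EMT factor Foxc2 (1.26) and the metastasis-linked S100a4 (0.88). N-cadherin (Cdh2) went the other way (-0.70, -0.62 and -0.49 in the 4T1 tumors and 0.51, 0.55 and 0.29 in the Py230 tumors, difference -1.05 ± 0.082 (SE), adjusted p = 5.63e-11), as did Snai2 (Slug), an EMT factor also expressed in basal cells (-0.47, -0.52 and -0.17 in the 4T1 tumors and 0.55, 0.75 and 0.45 in the Py230 tumors, difference -0.97 ± 0.105 (SE), adjusted p = 2.76e-08).

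**Figure D2:**
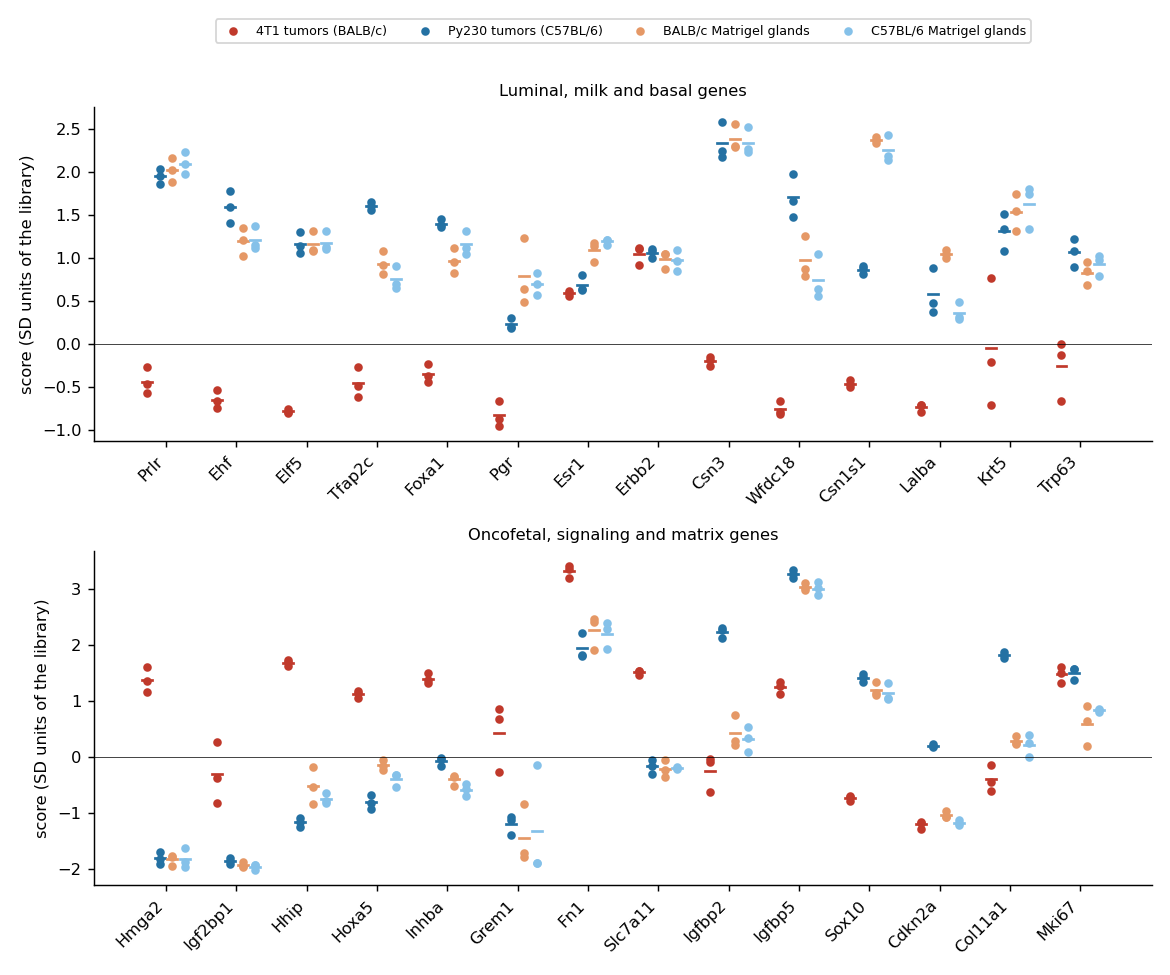
Scores of single genes in each tumor and Matrigel gland library at 6 w p.i., with 1 point per library and the mean of the 3 libraries of each group as a line, on a y axis in score units. The luminal, milk and basal genes shown lie lower in the 4T1 than in the Py230 libraries, except that Esr1 and Erbb2 lie close together, and Hmga2, Hhip and Fn1 lie higher.

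Beside luminal genes, the genes of largest difference held fetal growth regulators, proteases and secreted factors. Hmga2, an architectural chromatin protein of the embryo, scored 1.35, 1.61 and 1.17 in the 4T1 tumors and -1.71, -1.91 and -1.82 in the Py230 tumors, a difference of 3.19 ± 0.23 (SE), adjusted p = 1.64e-11, and had the largest positive difference of the genes named by rule. Hmga2 scores were also low in the glands of both strains (-1.95 to -1.63), where the lowest scores of the tumor libraries were -2.59 to -2.41. Its small gland difference is therefore a weak check for a strain effect. Of 11 oncofetal genes tested 4 were called higher, Hmga2, its paralog Hmga1 (0.87) and the let-7-regulated mRNA-binding proteins Igf2bp1 (1.55) and Igf2bp2 (1.31). Igf2bp2 scored 1.09, 1.13 and 1.12 in the 4T1 tumors and -0.20, -0.18 and -0.22 in the Py230 tumors, a difference of 1.31 ± 0.079 (SE), adjusted p = 5.58e-13, with a narrow spread in both models. The 2 genes called lower, the imprinted Dlk1 (-0.52) and Plagl1 (-0.30), were both lost without Py230 replicate 2, among other settings.

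The membrane serine protease genes Tmprss11e and Tmprss2 moved in opposite directions. Tmprss11e scored 1.16, 1.14 and 1.19 in the 4T1 tumors and -1.40, -1.49 and -1.73 in the Py230 tumors, a difference of 2.70 ± 0.30 (SE), adjusted p = 3.62e-08. Tmprss2, an androgen-regulated protease of luminal epithelia, scored -0.89, -0.88 and -0.84 in the 4T1 tumors and 1.23, 1.15 and 1.23 in the Py230 tumors, a difference of -2.07 ± 0.096 (SE), adjusted p = 4.03e-15. Msln, mesothelin, a surface antigen of several carcinomas, was higher in 4T1 tumors (0.58, 0.47 and 1.06 in the 4T1 tumors and -1.87, -1.86 and -1.84 in the Py230 tumors, difference 2.56 ± 0.17 (SE), adjusted p = 3.51e-12). Msln scores were also low in the glands of both strains (-1.90 to -1.44), so the glands are a weak check for a strain effect here, as for Hmga2. Tslp, an epithelial cytokine that acts on dendritic cells and type 2 immunity, was also higher (1.11, 1.04 and 1.06 in the 4T1 tumors and -1.23, -1.11 and -1.20 in the Py230 tumors, difference 2.25 ± 0.21 (SE), adjusted p = 1.89e-09). Each of these genes separated the 6 tumors by model without overlap, which the rule that named them required.

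Slc7a11, the cystine importer that feeds glutathione synthesis, scored 1.54, 1.54 and 1.47 in the 4T1 tumors and -0.049, -0.16 and -0.31 in the Py230 tumors, a difference of 1.69 ± 0.19 (SE), adjusted p = 3.36e-08. Other named higher genes were Padi4, which converts arginine to citrulline in histones (1.66), Ankrd1, a target of the YAP coactivator (1.55), Tnnt2, cardiac troponin T (1.67), and Tmie, a protein of hair cells (1.55). Named lower genes were Capn6 (-2.36), a calpain without protease activity, the secreted Clca1 (-2.25), the cartilage collagens Col9a1 (-2.24) and Col11a1 (-2.23), 5330417C22Rik (-2.19), the sulfatase Arsi (-2.12) and Kank4 (-2.12). Col11a1 scored -0.44, -0.62 and -0.15 in the 4T1 tumors and 1.87, 1.82 and 1.77 in the Py230 tumors, a difference of -2.23 ± 0.15 (SE), adjusted p = 4.54e-12. Tnnt2 was the least even of the higher genes, with 0.87, 0.092 and 0.97 in the 4T1 tumors. Each of these was above the highest Py230 value of -0.87, as the naming rule required.

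Growth factor pathways held genes called in both directions, as did all genes tested (24.4% higher and 18.1% lower). In the insulin-like growth factor (IGF) system 4 of 15 genes (26.7%) were called higher and 4 (26.7%) lower, near the shares of all genes. The IGF binding proteins divided: Igfbp2 scored -0.084, -0.64 and -0.045 in the 4T1 tumors and 2.31, 2.26 and 2.13 in the Py230 tumors, a difference of -2.49 ± 0.25 (SE), adjusted p = 9.64e-09. Igfbp5, abundant in involuting glands, scored 1.12, 1.28 and 1.35 in the 4T1 tumors and 3.34, 3.21 and 3.27 in the Py230 tumors, a difference of -2.02 ± 0.13 (SE), adjusted p = 1.62e-12. Stc2, an inhibitor of IGF release (-1.43), and Igfals, the acid-labile subunit (-1.01), were lower as well. The receptor Igf1r was higher (1.44, 1.49 and 1.30 in the 4T1 tumors and 0.52, 0.64 and 0.41 in the Py230 tumors, difference 0.88 ± 0.086 (SE), adjusted p = 4.04e-09). Also higher, by smaller differences, were the receptor Igf2r (0.28) and the binding proteins Igfbp7 (0.24, a call lost with only the 6 tumor libraries) and Igfbp4 (0.23).

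In the hedgehog pathway 5 of 16 genes (31.25%) were called higher and 4 (25%) lower, beside 24.4% and 18.1% of all genes tested. Hhip, which binds and removes the ligands (chr8:79965851-80058006, - strand, mm10), scored 1.62, 1.70 and 1.74 in the 4T1 tumors and -1.16, -1.10 and -1.26 in the Py230 tumors, a difference of 2.86 ± 0.21 (SE), adjusted p = 2.20e-11. The co-receptors divided, with Cdon higher (2.02, 1.91 and 1.81 in the 4T1 tumors and 0.85, 0.87 and 0.94 in the Py230 tumors, difference 1.02 ± 0.11 (SE), adjusted p = 3.04e-08) and Boc (-0.83) and Gas1 (-0.57) lower. The pathway's readout genes Ptch1 (-0.030 ± 0.058 (SE), adjusted p = 0.719) and Gli1 (-0.015 ± 0.14 (SE), adjusted p = 0.947) were not called.

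For the ErbB family 6 of 12 genes (50%) were called lower and 2 (16.7%) higher, beside 18.1% and 24.4% of all genes tested. Lower were the receptors Egfr (-0.67) and Erbb3 (-0.72) and the neuregulins Nrg1 (-0.94) and Nrg2 (-1.56), and higher were the EGF receptor ligands Hbegf (0.78) and Tgfa (0.52). Of 16 Notch pathway genes 7 were called lower, among them the target Hey1 (0.0017, -0.21 and -0.085 in the 4T1 tumors and 1.27, 1.39 and 1.11 in the Py230 tumors, difference -1.36 ± 0.11 (SE), adjusted p = 7.34e-11) and the receptors Notch1 (-0.51) and Notch3 (-0.61), and only Notch2 was called higher (0.51). Of 38 Wnt genes 7 were called higher and 12 lower: the ligands Wnt7a (1.75) and Wnt7b (0.84) and the Wnt-inactivating enzyme Notum (1.54) were higher, and the ligands Wnt4 (-1.12), a progesterone-induced factor of the luminal lineage, and Wnt5b (-1.21), the receptor Fzd8 (-0.69) and the receptor-removing ligase Rnf43 (-0.98) were lower. Wnt7a was uneven in 4T1 tumors (0.12, -1.07 and 0.30 in the 4T1 tumors and -1.89, -1.95 and -2.07 in the Py230 tumors), with replicate 2 below the other two. Of 17 FGF genes 2 (11.8%) were called higher and 7 (41.2%) lower, led by the receptor Fgfr1 (-0.80). The Notch shares were 6.25% higher and 43.75% lower, and the Wnt shares 18.4% higher and 31.6% lower.

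Of 33 TGF-beta and BMP family genes 10 (30.3%) were called higher and 9 (27.3%) lower, beside 24.4% and 18.1% of all genes tested. Inhba, the activin A subunit, scored 1.38, 1.32 and 1.496 in the 4T1 tumors and -0.044, -0.012 and -0.16 in the Py230 tumors, a difference of 1.47 ± 0.21 (SE), adjusted p = 1.92e-06. Each 4T1 value lay above each Py230 value. The TGF-beta binding protein Ltbp1 (0.67), the activin antagonist Fstl3 (0.59) and the protease Bmp1 (0.65), which trims procollagens, were higher as well. Another activin antagonist, Fst (-0.68), and the ligand Bmp7 (-0.71) were lower, and the ligand Tgfb1 was higher (0.30).

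Genes of growth arrest were lower in 4T1 tumors, whereas none of a short list of proliferation genes was called. Of 20 genes of the p53 pathway and the Cdkn2a locus 12 were called lower and 1 higher (Ei24, 0.11, a call lost after cyclic loess, with only the 6 tumor libraries, and without 4T1 replicates 1 or 2 or Py230 replicates 1 or 2), with a median of -0.34. Counts for this list were 9 lower and 0 higher with the gland difference subtracted. Cdkn2a, which encodes the cyclin-dependent kinase inhibitor p16 and the MDM2 inhibitor ARF (chr4:89274471-89294653, - strand, mm10), scored -1.28, -1.19 and -1.15 in the 4T1 tumors and 0.19, 0.23 and 0.18 in the Py230 tumors, a difference of -1.41 ± 0.12 (SE), adjusted p = 7.48e-10. Its neighbor Cdkn2b (p15) scored -0.62, -0.61 and -0.30 in the 4T1 tumors and 0.33, 0.28 and 0.38 in the Py230 tumors, a difference of -0.84 ± 0.090 (SE), adjusted p = 2.38e-08. For both, the 4T1 values were negative and the Py230 values positive. Cdkn1a (p21) scored 0.90, 0.86 and 0.90 in the 4T1 tumors and 1.29, 1.33 and 1.33 in the Py230 tumors, a difference of -0.43 ± 0.066 (SE), adjusted p = 6.30e-06 (gland difference 0.27), and Trp53 itself 0.89, 0.90 and 0.87 in the 4T1 tumors and 1.18, 1.19 and 1.10 in the Py230 tumors, a difference of -0.27 ± 0.057 (SE), adjusted p = 4.10e-04. The mean score of the list was 0.36 to 0.37 in 4T1 tumors, 0.72 to 0.76 in Py230 tumors and 0.34 to 0.41 in the glands, so here the Py230 tumors stood apart from the glands. Of 30 proliferation genes 0 were called by limma in either direction and 0 had an unadjusted p under 0.05. Their mean score was 0.73 to 0.97 in 4T1 and 0.73 to 0.87 in Py230 tumors, against -0.28 to 0.11 in the glands, and Mki67 scored 1.33, 1.49 and 1.61 in the 4T1 tumors and 1.58, 1.58 and 1.37 in the Py230 tumors. Wider deposited lists of cell division did hold calls: 43 higher and 12 lower (7 without 4T1 replicate 1) of 190 E2F targets, 40 and 20 of 189 G2M checkpoint genes, and 52 and 27 of 195 mitotic spindle genes. Their shares called higher (22.6%, 21.2% and 26.7%) were near the 24.4% of all genes tested. Their shares called lower (6.32%, 10.6% and 13.8%) were under the 18.1% of all genes tested.

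Matrix and protease genes were mixed. Of 29 matrix metalloproteinases (MMPs), related proteases and inhibitors 9 (31.0%) were called higher and 4 (13.8%) lower. These shares were not far from the 24.4% and 18.1% of all genes tested. With the gland difference subtracted the counts were 5 and 3. Mmp9, a gelatinase, scored 1.24, 1.04 and 1.19 in the 4T1 tumors and 0.034, 0.38 and -0.045 in the Py230 tumors, a difference of 1.03 ± 0.21 (SE), adjusted p = 2.93e-04. Mmp8 (1.24), a collagenase of neutrophils, Mmp10 (1.13) and the urokinase receptor Plaur (0.93) were higher, and the inhibitor Timp3 (-0.75) was lower. Neutrophils store MMP-8 and MMP-9, and Mmp8 is itself a member of the neutrophil marker list given below. Which cells the Mmp8 and Mmp9 RNA came from was not tested. Of 22 collagen genes 6 were called lower and 2 higher, and the lower count fell to 3 when either Py230 replicate 1 or Py230 replicate 2 was left out. Collagen counts were 2 lower and 1 higher with the gland difference subtracted. The secreted Lgals1 (galectin-1, 2.37, 2.40 and 2.46 in the 4T1 tumors and 1.35, 1.45 and 1.47 in the Py230 tumors, difference 0.99 ± 0.067 (SE), adjusted p = 5.55e-12) and Pthlh, the parathyroid hormone-related protein (0.40, 0.33 and 0.29 in the 4T1 tumors and -0.75, -0.68 and -1.05 in the Py230 tumors, difference 1.17 ± 0.12 (SE), adjusted p = 6.06e-09), were higher, and Lcn2 (lipocalin 2, 2.03, 1.84 and 1.63 in the 4T1 tumors and 2.61, 2.52 and 2.64 in the Py230 tumors, difference -0.76 ± 0.13 (SE), adjusted p = 2.48e-05) and Chil1 (-0.71) were lower in 4T1 tumors, Chil1 only with Py230 replicate 3 in the fit.

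Of 23 angiogenesis genes 9 were called higher and 2 lower, among them the co-receptor Nrp2 (0.96), Angpt2 (0.61) and Vegfa (1.19, 1.31 and 1.25 in the 4T1 tumors and 1.02, 1.13 and 0.84 in the Py230 tumors, difference 0.25 ± 0.102 (SE), adjusted p = 0.0473). The Vegfa call was lost after both rescalings of the libraries and without any 1 tumor library other than Py230 replicate 2. Of 14 endothelial markers 2 were called higher, Pecam1 (0.14) and Robo4 (0.24), and neither was called after cyclic loess normalization or without 4T1 replicate 1. Hypoxia and glycolysis genes were called higher more often, 14 of 32 against 2 lower, with a median of 0.21. The glucose transporters Slc2a1 (1.51, 1.54 and 1.23 in the 4T1 tumors and 0.86, 0.93 and 0.81 in the Py230 tumors, difference 0.56 ± 0.11 (SE), adjusted p = 1.14e-04) and Slc2a3 (0.49), the stress gene Ndrg1 (0.63) and the collagen hydroxylase P4ha1 (0.47) were higher. The aldolase gene Aldoc (-1.16) and the carbonic anhydrase Car12 (-0.75) were lower. With the gland difference subtracted the counts were 8 and 2.

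In metabolism, a minority of lipid synthesis genes was lower. Of 24 genes of fatty acid and cholesterol synthesis 7 were called lower and 0 higher, including Thrsp (-0.62, -0.56 and -0.44 in the 4T1 tumors and 1.27, 1.07 and 1.28 in the Py230 tumors, difference -1.74 ± 0.29 (SE), adjusted p = 1.68e-05), which promotes milk fat synthesis, and the lipogenic factor Srebf1 (-0.65). The other 17 were not called, the median was -0.099, and with the gland difference subtracted 3 were called lower and 1 higher. Thrsp is also an adipocyte marker, and its part in the adipocyte list was not separated. Of 26 genes of amino acid metabolism 10 were called higher and 3 lower, with Cbs (-1.14), an enzyme of cysteine synthesis, among the lower, and the higher count was 6 without 4T1 replicate 1, 6 without 4T1 replicate 2 and 5 without Py230 replicate 3. Counts for this list were 4 higher and 3 lower with the gland difference subtracted. NRF2 antioxidant genes were split, 8 of 26 called higher and 6 lower: Slc7a11 and Osgin1 (0.65) were higher and Nqo1 (-0.26, -0.71 and -0.54 in the 4T1 tumors and 0.59, 0.73 and 0.42 in the Py230 tumors, difference -1.08 ± 0.099 (SE), adjusted p = 1.46e-09), Gclm (-0.32) and Gpx2 (-1.16) lower. The higher count was 4 after cyclic loess normalization and 5 without 4T1 replicate 2, 4T1 replicate 3, Py230 replicate 1 or Py230 replicate 3. Of 20 aldehyde dehydrogenase genes 7 were called lower and 0 higher, including Aldh1a1 (-1.16) and Aldh1a3 (-1.16), enzymes of retinoic acid synthesis.

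Neutrophil genes were higher in 4T1 tumors. Of 16 neutrophil markers tested 15 were called higher and 1 lower, and 9 and 1 with the gland difference subtracted. Many of them had low counts: 7 reached a mean normalized count of 100, of which 6 were called higher and 1 lower. S100a8 and S100a9 encode calprotectin, the main cytosolic protein of neutrophils. S100a8 scored 1.11, 0.89 and 0.89 in the 4T1 tumors and 0.028, -0.099 and -0.31 in the Py230 tumors, a difference of 1.09 ± 0.16 (SE), adjusted p = 2.58e-06. S100a9 scored 1.28, 1.07 and 1.11 in the 4T1 tumors and -0.14, -0.20 and -0.55 in the Py230 tumors, a difference of 1.45 ± 0.18 (SE), adjusted p = 3.70e-07. Ngp, a granule protein of immature neutrophils, scored 0.67, 0.13 and -0.0995 in the 4T1 tumors and -1.05, -1.26 and -1.89 in the Py230 tumors, a difference of 1.63 ± 0.19 (SE), adjusted p = 1.29e-07. In all 3 genes each 4T1 tumor was above each Py230 tumor. The receptors Cxcr2 (0.28, 0.012 and 0.16 in the 4T1 tumors and -0.54, -0.46 and -0.60 in the Py230 tumors, difference 0.68 ± 0.20 (SE), adjusted p = 0.00751), Csf3r (0.46 ± 0.17 (SE), adjusted p = 0.0355) and Trem1 (0.96) were higher as well, but the Csf3r call was lost without any 1 of the 6 libraries. The marker called lower was Ltf, lactoferrin, a granule protein that is also a milk protein (0.77, 0.499 and 0.49 in the 4T1 tumors and 1.51, 1.29 and 1.60 in the Py230 tumors, difference -0.88 ± 0.13 (SE), adjusted p = 2.47e-06). Ly6g, Mpo, Elane and Camp fell under the mean count for testing, so that they give no value here. The mean score of the 16 markers was 0.21 to 0.43 in 4T1 tumors, -0.61 to -0.47 in Py230 tumors and -0.80 to -0.60 in the glands.

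Most members of a list of myeloid chemokines and cytokines were higher as well. Of 13 genes tested, which include ligands of neutrophils and also Csf1 (0.35) and Il34 (0.42), the ligands of the macrophage receptor CSF1R, 9 were called higher and 1 lower, with a median of 0.42. Csf3, which encodes the neutrophil growth factor G-CSF, scored 0.39, 0.35 and 0.17 in the 4T1 tumors and -0.85, -0.86 and -1.12 in the Py230 tumors, a difference of 1.25 ± 0.15 (SE), adjusted p = 2.38e-07. Cxcl2 scored 0.26, 0.13 and 0.26 in the 4T1 tumors and -0.91, -0.81 and -0.82 in the Py230 tumors, a difference of 1.06 ± 0.19 (SE), adjusted p = 7.05e-05. Cxcl3 scored -0.49, -0.44 and 0.18 in the 4T1 tumors and -1.39, -1.47 and -1.63 in the Py230 tumors, a difference of 1.25 ± 0.17 (SE), adjusted p = 9.60e-07. These groups did not overlap. Cxcl1, a ligand of the same receptor CXCR2, overlapped between the models (0.55, 0.29 and 0.35 in the 4T1 tumors and 0.21, 0.33 and 0.025 in the Py230 tumors) and was not called (0.20 ± 0.17 (SE), adjusted p = 0.353). Cxcl5 (0.66) and Il23a (1.499), a subunit of interleukin-23, were higher, and Cxcl15, a chemokine of lung and glandular epithelia, was lower (-1.05).

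Cxcl1, Cxcl2 and Cxcl3 lie within the same chemokine cluster on chromosome 5 and are known targets of NF-kB, and their upstream 250 bases (RefSeq, GRCm38.p6) are shown because 1 of these 3 related genes did not pass the test. Capitals mark the match to the NF-kB motif, for Cxcl1 (chr5:90890995-90891244), Cxcl2 (chr5:90903649-90903898) and Cxcl3 (chr5:90785851-90786100), all on the + strand:
Cxcl1: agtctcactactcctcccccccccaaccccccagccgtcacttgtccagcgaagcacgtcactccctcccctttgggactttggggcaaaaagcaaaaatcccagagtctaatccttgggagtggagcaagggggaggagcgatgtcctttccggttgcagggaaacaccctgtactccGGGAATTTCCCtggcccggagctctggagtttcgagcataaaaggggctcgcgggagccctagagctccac
Cxcl2: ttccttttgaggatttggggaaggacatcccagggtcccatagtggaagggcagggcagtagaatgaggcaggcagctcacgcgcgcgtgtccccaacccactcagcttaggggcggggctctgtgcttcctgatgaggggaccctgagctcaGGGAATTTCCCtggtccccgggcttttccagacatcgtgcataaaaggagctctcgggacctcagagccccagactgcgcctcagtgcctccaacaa
Cxcl3: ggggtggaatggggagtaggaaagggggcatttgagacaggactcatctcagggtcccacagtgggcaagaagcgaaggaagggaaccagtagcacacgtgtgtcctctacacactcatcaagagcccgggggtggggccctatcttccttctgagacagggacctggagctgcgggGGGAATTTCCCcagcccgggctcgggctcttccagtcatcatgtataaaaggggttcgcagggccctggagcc
All 3 windows hold the same letters GGGAATTTCCC, in which matches on both strands overlap. Of 8 genes of this chemokine list with a promoter sequence at hand, 4 held a match, Csf1 beside these 3. A match occurred in 7.06% of all promoters of the table, in 8.77% of those of genes tested, in 9.0% of those called higher and in 8.04% of those called lower.

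**Figure D3:**
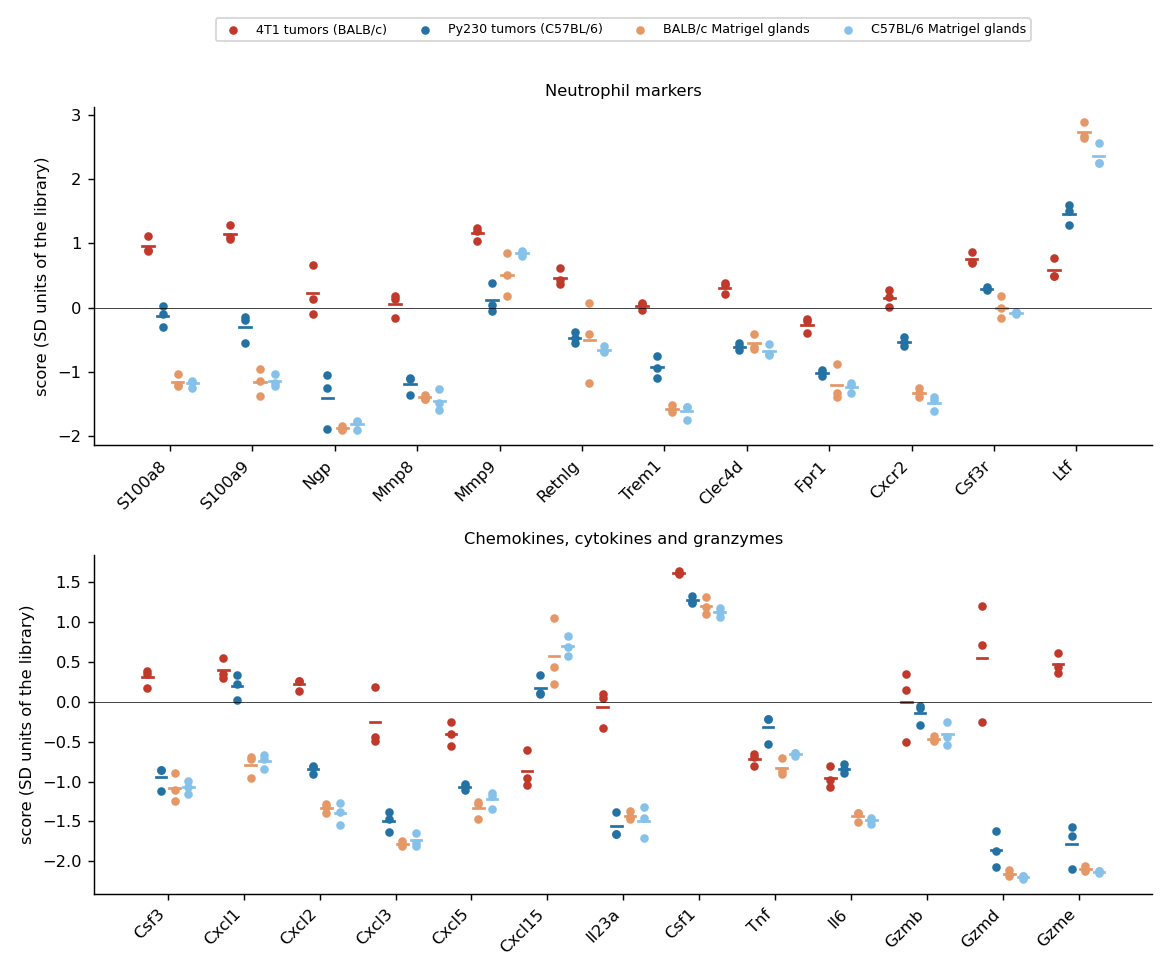
Scores of neutrophil markers, chemokines, cytokines and granzymes in each tumor and Matrigel gland library at 6 w p.i., with 1 point per library and the mean of each group as a line, on a y axis in score units. The S100a8, S100a9, Csf3 and Cxcl2 points of the models do not overlap, the Cxcl1 points do, and 4T1 replicate 3 is the lowest 4T1 library for Gzmd and Gzme.

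Among 29 genes of the IL-1, IL-6 and TNF families 10 were called higher and 1 lower, and the higher count was 6 without Py230 replicate 2. Inducible enzymes were among the higher genes: Nos2, nitric oxide synthase, scored 0.79, 0.64 and 0.60 in the 4T1 tumors and -0.30, -0.22 and -0.36 in the Py230 tumors, a difference of 0.97 ± 0.16 (SE), adjusted p = 2.66e-05. Ptgs2, cyclooxygenase-2, scored 1.26, 1.51 and 0.93 in the 4T1 tumors and 0.26, 0.43 and 0.20 in the Py230 tumors, a difference of 0.94 ± 0.17 (SE), adjusted p = 4.96e-05. Tnf was lower in 4T1 tumors (-0.69, -0.65 and -0.81 in the 4T1 tumors and -0.22, -0.53 and -0.21 in the Py230 tumors, difference -0.39 ± 0.11 (SE), adjusted p = 0.00589) and Il6 was not called (-0.11 ± 0.14 (SE), adjusted p = 0.552). Of 23 macrophage and monocyte markers 4 were called higher, including the scavenger receptor Msr1 (1.63, 1.68 and 1.56 in the 4T1 tumors and 0.54, 0.60 and 0.45 in the Py230 tumors, difference 1.10 ± 0.17 (SE), adjusted p = 7.20e-06) and the integrin Itgam (0.62), and 1 lower, the monocyte marker Ly6c2 (-0.36), a call lost without 4T1 replicate 2 or Py230 replicate 3 and with only the 6 tumor libraries. With only the 6 tumor libraries in the fit, 14 of the 23 were called higher. Arg1, arginase 1, was higher (0.94) and Retnla (-0.71) and Clec10a (-0.70), other markers of alternative activation, were lower, the Retnla call being lost without 4T1 replicate 2 or Py230 replicates 2 or 3 and with only the libraries of week 6.

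Granzymes, the proteases of cytotoxic granules, divided by gene. Gzmd, Gzme and Gzmg, neighbors in the granzyme cluster on chromosome 14, showed large differences. Gzme scored 0.44, 0.61 and 0.36 in the 4T1 tumors and -1.68, -1.57 and -2.10 in the Py230 tumors, a difference of 2.25 ± 0.13 (SE), adjusted p = 2.56e-13. Gzmd scored 0.71, 1.19 and -0.26 in the 4T1 tumors and -1.87, -1.62 and -2.07 in the Py230 tumors, a difference of 2.41 ± 0.18 (SE), adjusted p = 4.64e-11. Gzmg scored 0.90, 1.69 and -1.24 in the 4T1 tumors and -2.10, -2.20 and -2.15 in the Py230 tumors, a difference of 2.60 ± 0.35 (SE), adjusted p = 8.07e-07. Of 8 granzyme genes tested 4 were called higher, and 2, neither of them called, reached a mean normalized count of 100. Gzmd, Gzme and Gzmg are close relatives, and reads shared between them could be assigned to any of them. 4T1 replicate 3 was the lowest 4T1 tumor in each, yet all Py230 tumors were lower still. The SE and p of Gzmd and Gzmg rest on the spread shared by all 36 libraries. They do not measure the wide scatter of the 3 4T1 tumors in these 2 genes. Gzmb, the main granzyme of killer T cells, was not called (0.15, 0.34 and -0.502 in the 4T1 tumors and -0.059, -0.29 and -0.074 in the Py230 tumors, difference 0.14 ± 0.20 (SE), adjusted p = 0.627), while Gzmc (0.78) and perforin, Prf1 (0.17, 0.46 and -0.32 in the 4T1 tumors and -0.64, -0.76 and -0.52 in the Py230 tumors, difference 0.75 ± 0.17 (SE), adjusted p = 9.03e-04), were higher.

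Lymphocyte identity genes differed little. Of 21 T cell genes 0 were called higher and 2 lower (Tcf7 -0.51, Cd4 -0.40, the latter call lost without 4T1 replicates 2 or 3 or Py230 replicates 1 or 3), and 1 higher and 0 lower with the gland difference subtracted. The mean score of the list was -0.20 to -0.17 in 4T1 and -0.26 to 0.058 in Py230 tumors, so the ranges overlapped. Of 17 B cell and plasma cell genes 1 was called higher and 3 lower. Of 175 immunoglobulin variable genes tested 0 were called by limma and 2 had an unadjusted p under 0.05. Among 24 checkpoint and costimulation genes 7 were called higher and 3 lower: Cd274, the PD-L1 gene, scored 0.83, 0.86 and 0.63 in the 4T1 tumors and 0.29, 0.13 and 0.45 in the Py230 tumors, a difference of 0.49 ± 0.12 (SE), adjusted p = 0.00149. Nt5e, the adenosine-producing CD73, scored 1.90, 1.97 and 1.76 in the 4T1 tumors and 0.56, 0.43 and 0.47 in the Py230 tumors, a difference of 1.39 ± 0.083 (SE), adjusted p = 5.08e-13. In both, the 4T1 tumors lay above the Py230 tumors. Ido1, an enzyme that degrades tryptophan, was lower (-0.82), and this call was lost without Py230 replicate 3.

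Interferon-stimulated genes were seldom called, 1 of 39 higher and 6 lower, and the lower count was 3 without Py230 replicate 3. The gene called higher, Ifi44l, differed in the glands in the same direction. Of 23 MHC class I and peptide loading genes 8 were called higher and 1 lower, led by H2-Q2 (1.08) and H2-Q1 (1.06), and 5 were called between the glands. The strains carry different MHC haplotypes, and reads of both were mapped to a genome of the C57BL/6 strain, so single class I genes may gain or lose reads by sequence, which was not tested.

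**Figure D4:**
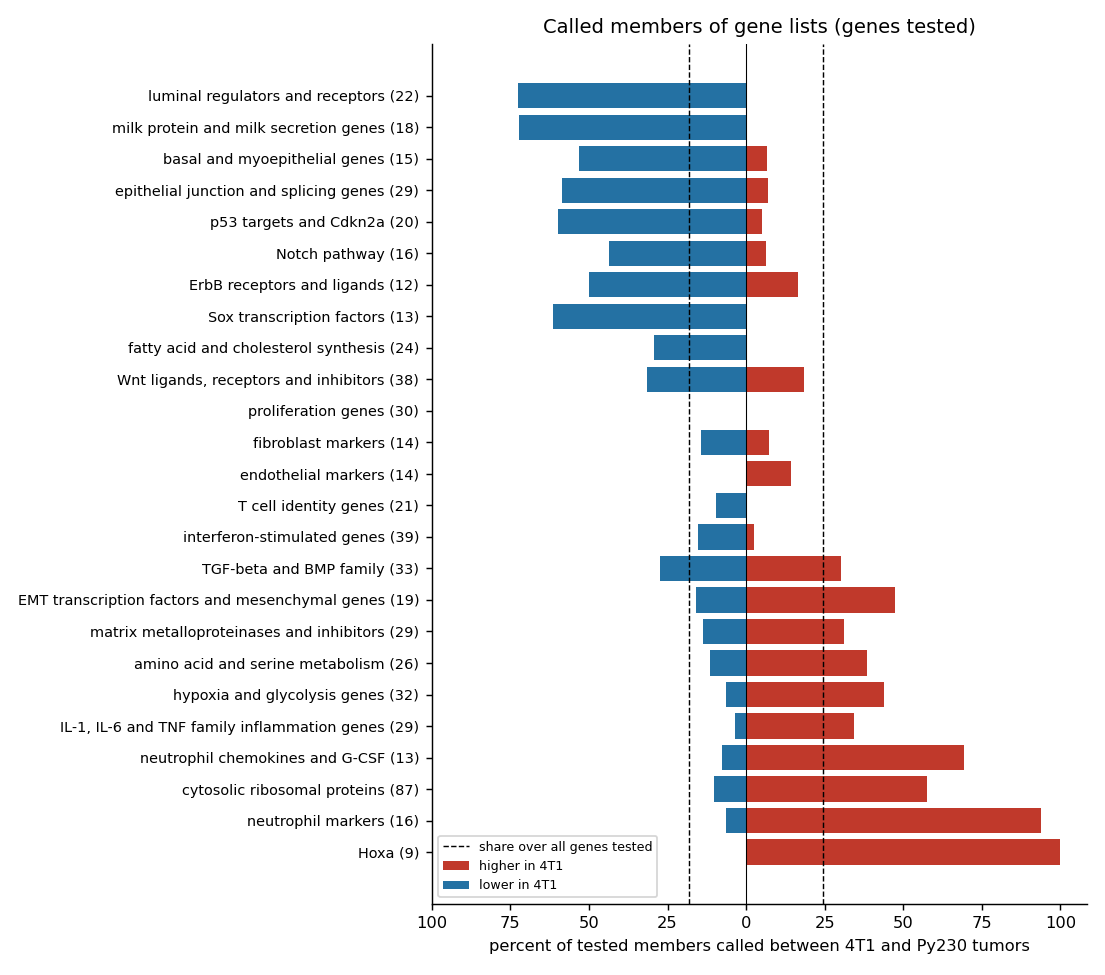
Percent of the tested members of each gene list that were called higher (right of 0) or lower (left of 0) in 4T1 tumors at 6 w p.i., with the number of genes tested in parentheses and dashed lines at the percent over all genes tested. Luminal, milk and Sox genes extend mainly to the left, neutrophil markers, the list of neutrophil chemokines and G-CSF, and the Hoxa cluster mainly to the right, and the proliferation list shows no bar.

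Hox genes, which set positional identity in the embryo, differed by cluster. All 9 Hoxa genes tested were called higher in 4T1 tumors, with a median of 1.13, against 1 of 8 Hoxb, 0 of 6 Hoxc and 0 of 4 Hoxd genes. Only 2 of the Hoxa genes reached a mean normalized count of 100. Of these 3 clusters, 3 Hoxb, 0 Hoxc and 1 Hoxd genes had an unadjusted p under 0.05. Hoxa5 scored 1.14, 1.06 and 1.18 in the 4T1 tumors and -0.67, -0.83 and -0.93 in the Py230 tumors, a difference of 1.94 ± 0.14 (SE), adjusted p = 3.20e-11. Hoxa10 scored 0.30, 0.26 and 0.32 in the 4T1 tumors and -1.504, -1.44 and -1.60 in the Py230 tumors, a difference of 1.81 ± 0.27 (SE), adjusted p = 5.44e-06. The 4T1 values lay above the Py230 values in both genes. The region formed 1 of the 2 longest runs of neighboring genes called in 1 direction, 15 genes from Skap2 to Hoxa10 at chr6:51857422-52240854, with a median of 0.86. The gland medians of these genes were near 0 (0.023) and 0 of them were called in the glands. The other long run held 16 genes called lower, from Denr to Snrnp35 at chr5:123907175-124491124, with a median of -0.30.

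Differences were uneven along the genome. On chromosome 18, 252 of 528 genes tested (47.7%) were called lower and 71 (13.4%) higher in 4T1 tumors, against 18.1% and 24.4% of all genes. The median difference there was -0.149, whereas the glands showed a median of 0.00769. The median score of chromosome 18 genes was 0.21 to 0.26 in the 3 4T1 libraries and 0.40 to 0.45 in the 3 Py230 libraries, without overlap. The chromosome holds the clustered protocadherins, adhesion proteins of neurons, of which 17 of 43 were called lower and 4 higher. Without them 235 of 485 genes were called lower and 67 higher, with a median of -0.150. In 370 blocks of 50 neighboring genes, 26 had a median under -0.1 and 17 of these lay on chromosomes 4 and 18, and all 10 blocks of chromosome 18 were negative. Chromosome 4 was mixed, with 9 of 23 blocks under -0.1 and 4 over 0.1. The strongest shift upward was on chromosome 8, where 384 of 965 genes (39.8%) were called higher, with a median of 0.0954. Copy number was not measured here.

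**Figure D5:**
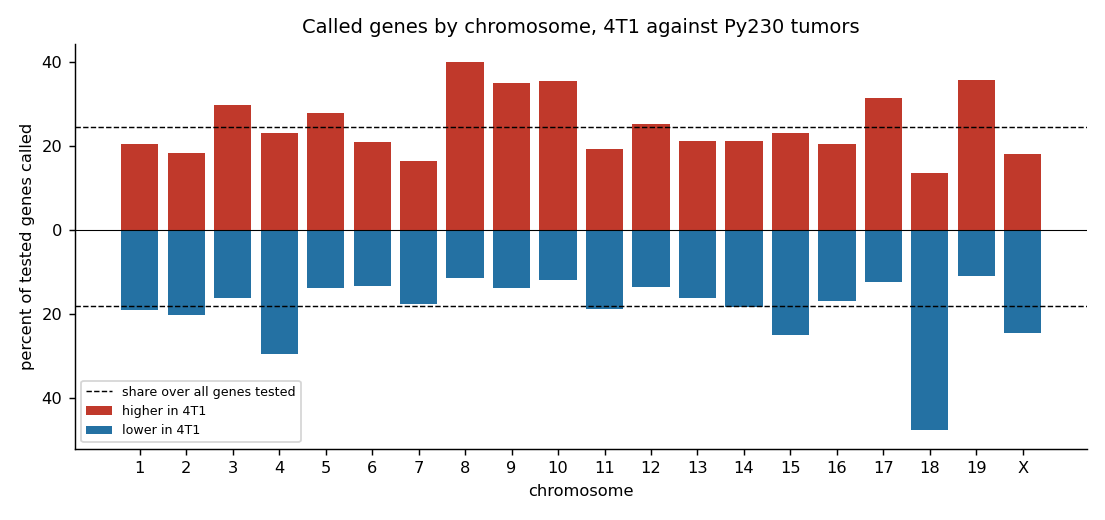
Percent of genes tested on each chromosome that were called higher or lower in 4T1 tumors at 6 w p.i. Chromosome 18 shows the highest percent lower (47.7%) and chromosome 8 the highest percent higher (39.8%).

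By gene type, processed pseudogenes were called higher far more often than lower, 884 against 123 of 2406, and the imbalance held after cyclic loess normalization with 791 against 155. Protein-coding genes were nearly balanced, 3361 higher against 3159 lower of 14817, and the order turned with 2836 against 3663 after cyclic loess. Ribosomal protein genes, from which many processed pseudogenes derive, were called higher in 50 of 87 cases and lower in 9, the higher including Rpl41 (0.30). With the gland difference subtracted 20 were called higher and 1 lower. Of the 9 lower genes 7 were also called lower in BALB/c glands, such as Rpl29 (tumor -0.99, gland -1.17) and Rps2 (tumor -0.72, gland -0.85). Reads of these genes can also match their pseudogenes, so single values are uncertain.

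In all, 356 genes were called in the same direction in tumors and glands. Only those picked by a fixed rule, up to 4 in each direction, or added later are named here. Gm10499, Ifi202b, Gm11127 and Gm8909 were higher and Fgb was lower in both contrasts by the fixed rule, and they were called with the gland difference subtracted. Gm10499, Gm11127 and Gm8909 lie in the MHC region of chromosome 17. Ifi202b, an interferon-inducible regulator of DNA sensing, had a tumor difference of 2.44 and a gland difference of 2.01. Fgb, the fibrinogen beta chain, scored -1.24, -1.18 and -1.26 in the 4T1 tumors and 1.12, 1.18 and 1.10 in the Py230 tumors, with a tumor difference of -2.36 and a gland difference of -1.60. H2-Ea-ps (tumor 2.55, gland 2.25), Ifi44l (1.86 and 1.43), Fgg (-1.71 and -1.19), Ifi213 (-1.52 and -1.30) and AI506816 (-1.43 and -1.34) were added after their values were seen, and none of these 5 was called once the gland difference was subtracted.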

How the data were processed

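RNA from whole tumors and Matrigel glands was made into stranded TruSeq libraries, and per the study's methods and the labels the authors used STAR for mapping paired reads to mm10, GenomicAlignments (summariseOverlaps) for counting per gene and DESeq2 for normalization; versions and gene annotation are not given in the sources used here. The deposited expression values are scores with a mean of 0 and an SD of 1 within each library over 21650 genes, a step that is not described, so they were tested as continuous values and never as counts. The authors' deposited table for week 6 gave the mean normalized count of each gene, used only to filter, and the fold change and p-value columns of all 3 deposited comparison tables (weeks 1, 3 and 6) were not used. Of the symbols, 16266 came from this table and 5384 from the mouse reference.

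Genes whose mean normalized count reached 10 were fitted in R 4.3.3 with limma 3.58.1 as 12 group means over all 36 libraries, with trended and robust moderation (MASS 7.3.60.0.1), with Benjamini-Hochberg adjustment over 19073 genes and a threshold of 0.05. The contrasts were 4T1 minus Py230 tumors, BALB/c minus C57BL/6 glands, and the first minus the second. An exact permutation test of 3 against 3 libraries cannot give a p under 0.1 and was not used. The code was tested on simulated data. Depth is unknown, so no counting interval was computed. Replicate numbers were not taken as pairs.

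Named genes were in each direction the 15 called genes of largest difference whose mean normalized count reached 100, whose models did not overlap and which were also called after subtraction; up to 4 of these in each direction whose glands were called the same way with at least 0.5 of the tumor difference; and of each list up to 4 members with the smallest p in each direction and members that define a list of up to 30 genes. H2-Ea-ps, Ifi44l, Fgg, Ifi213 and AI506816, which differed between the glands in the same direction but were not required to pass after subtraction, and the genes with opposite signs in tumors and glands were chosen after their values were seen. A few genes that the rule names are not reported here. Lists were described by counts and medians, without a set test. Members and lists were chosen with earlier results of these data known. Alternatives were other filters, libraries, scalings and moderation, the replicate block and leaving out each library. Promoter sequences came from RefSeq on GRCm38.p6, positions from GENCODE on mm10.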

Additional observations from a re-analysis of the deposited data

Results flagged for a closer look

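For 9 genes the tumor difference (4T1 minus Py230) and the gland difference (BALB/c minus C57BL/6) were both called with opposite signs, and the difference between them was called by limma as well. Col9a1 had the largest difference between the contrasts (-2.77, adjusted p = 1.22e-10), with a tumor difference of -2.24 and a gland difference of 0.53. For Lalba, the milk protein, the difference between the contrasts was -1.996 (adjusted p = 4.01e-09), with -1.31 in the tumors and 0.68 in the glands. The others on the lower side were Sv2c, a synaptic vesicle protein (-1.69), Lao1, an L-amino acid oxidase found in milk (-1.55), Extl1 (-1.32), Mum1l1 (-1.32), Plppr4 (-1.23) and Cdkn1a (-0.70). B3gnt3, a glycosyltransferase of mucin-type sugars, was the only 1 of the 9 on the other side (1.10), with 0.51 in the tumors and -0.60 in the glands. Of all genes tested, 44 were called in both contrasts with opposite signs, and these 9 were those whose mean normalized count reached 100, with no overlap between the tumor models, and either at least 0.5 units in both contrasts or a place among the genes named for a list. Groups of 3 libraries were not tested for single outlying samples.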

How the results depend on the processing

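The number of genes called between the tumors (8111) and after subtraction of the gland difference (5105) stayed within 1.5 times its value under all alternatives run. Leaving out 1 tumor library at a time gave 6970 to 7521 calls between the tumors, leaving out 1 gland library gave 7985 to 8160, and over both kinds the count after subtraction was 4290 to 4968. The gland count of 680 was less stable, with 370 at a mean normalized count of at least 100, 1229 with only the 12 libraries of week 6, and 440 to 652 when 1 gland library was left out, 440 being the count without BALB/c replicate 2. The share of calls higher in 4T1 tumors (57.4%) was 59.1% without a filter, 55.8% with 12 libraries, 56.3% with the 6 tumors alone, 54.1% on robust lines, 49.7% after cyclic loess, and 55.7 to 58.0% when 1 library was left out. Of 615 genes with values under the alternatives 70 lost their call under at least 1, the cause being not tested, and 0 of the 36 genes of largest difference or shared with the glands did. Those 36 genes were picked in the main fit for a call, a large difference and no overlap, so their stability is a weak check. The sign turned only in genes that were not called: Fabp3 (-0.0072 on robust lines, -0.029 after cyclic loess and -0.052 to 0.082 without 1 library) and, without 1 library, Gli1 (-0.13 to 0.12), Mki67 (-0.1002 to 0.043), Gzmb (-0.036 to 0.39), Epcam (-0.17 to 0.23), Erbb2 (-0.048 to 0.051), Krt18 (-0.0024 to 0.15) and Csn1s2b (-0.045 to 0.026). Tumors with the same replicate number did not deviate together (correlations 0.0534, -0.00286 and 0.0910), so the numbers do not pair them. With a replicate block in the tumors 7980 genes were called between the tumors (57.5% higher) and 4993 after subtraction, and with a block in the glands instead 627 were called between the glands. A return to a log2 count scale was not run, since the steps of low values could not be read from the scores, and the unknown depth leaves counting error without an estimate.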

Other observations

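Adhesion and guidance families held genes called in both directions at 6 w p.i., as did all genes tested (24.4% higher and 18.1% lower). Shares higher and lower were 26.7% and 23.3% for integrins and 34.5% and 17.2% for semaphorins and plexins. They were 38.9% each way for ephrins and Eph receptors, and 18.2% and 36.4% for laminins. Of 30 integrin genes tested 8 were called higher and 7 lower in 4T1 tumors, and the lower count was 4 without 4T1 replicate 2. Itga3, a laminin receptor chain, was higher (2.17, 2.25 and 2.11 in the 4T1 tumors and 1.23, 1.37 and 1.005 in the Py230 tumors, difference 0.97 ± 0.088 (SE), adjusted p = 1.20e-09), and Itgb8, which activates latent TGF-beta, was lower (0.065, -0.088 and -0.45 in the 4T1 tumors and 0.67, 0.64 and 0.79 in the Py230 tumors, difference -0.86 ± 0.104 (SE), adjusted p = 1.78e-07). Both separated the models without overlap. Of 18 ephrins and Eph receptors, which signal between touching cells, 7 were called higher, including the ligand Efnb2 (0.69), and 7 lower, including the receptor Epha7 (-1.54). Of 29 semaphorins and plexins 10 were called higher, including Sema7a (0.82) and Sema3e (1.31), and 5 lower, including Sema3c (-1.15), a count of 3 when 4T1 replicate 1, 4T1 replicate 3 or Py230 replicate 1 was left out. The chains of laminin-332, a basement membrane protein of epithelia, were lower for Lama3 (-0.92) and Lamb3 (-0.82, a call lost with only the 6 tumor libraries), and 4 of 11 laminin genes in all were called lower and 2 higher.

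Among transcription factor and transport families, 8 of 27 Fox genes were called higher and 8 lower, the latter including Foxi1, a factor of ion-transporting cells (-0.90, -0.89 and -0.91 in the 4T1 tumors and 0.91, 0.85 and 1.26 in the Py230 tumors, difference -1.91 ± 0.11 (SE), adjusted p = 3.71e-13). The T-box genes Tbx2 (-0.78) and Tbx3 (-0.49), regulators of mammary bud formation, were lower. The Fox shares were 29.6% in each direction, beside 24.4% higher and 18.1% lower of all genes tested. Of 274 solute carrier genes 54 (19.7%) were called higher and 85 (31.0%) lower. Slc28a3, a nucleoside importer, was lower (-0.78, -1.02 and -1.05 in the 4T1 tumors and 0.93, 0.55 and 0.93 in the Py230 tumors, difference -1.75 ± 0.15 (SE), adjusted p = 5.84e-10), as was the peptide importer Slc15a2 (-1.43), and the noradrenaline transporter Slc6a2 was higher (1.51). Of 6 mucin genes 4 were called lower, among them Muc1 (-0.63) and Muc15 (-1.44), and 0 higher. Of 88 genes of oxidative phosphorylation 12 were called lower and 3 higher, and 34 and 6 with only the 6 tumor libraries in the fit.

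Mast cell and eosinophil genes were few: of 18 tested 3 were called higher, including the mast cell tryptase Tpsab1 (0.28, -0.15 and -0.049 in the 4T1 tumors and -1.32, -1.11 and -1.13 in the Py230 tumors, difference 1.21 ± 0.19 (SE), adjusted p = 1.02e-05), and 2 lower. Of 27 complement genes 7 were called higher (4 without Py230 replicate 1) and 3 lower, and the complement shield Cd55 was lower (-0.42, -0.035 and -0.35 in the 4T1 tumors and 0.48, 0.55 and 0.83 in the Py230 tumors, difference -0.89 ± 0.104 (SE), adjusted p = 1.05e-07). In the deposited hallmark lists, 54 of 180 MYC targets v1 were called higher (30%) and 19 lower, and 42 and 26 after cyclic loess. The lower count was 11 without 4T1 replicate 2 and 12 without Py230 replicate 1 or 2. Of 168 allograft rejection genes 40 were called higher (23.8%) and 15 lower (8.93%), beside 24.4% and 18.1% of all genes tested. Bile acid metabolism had 31 of 92 genes called lower (33.7%) and 11 higher. The EMT hallmark was near balance, with 48 higher and 41 lower of 181.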
